A study of Mus musculus with 2 samples.

Results

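Chat, Slc5a7, Slc18a3 and Ache, the genes that make, recycle, package and break down acetylcholine, were examined in nuclei of mouse hindbrain neurons that project to the lumbar spinal cord. The members were taken by symbol, and all 4 were among the 23912 genes of both deposited count tables. All 4 had at least 1 UMI (a counted RNA molecule) in the SNI with brush library, and 3 had one in the hot water bath library. Mice of the TRAP2 strain, in which the Fos promoter drives an inducible Cre recombinase, were 8 to 12 weeks old in both groups and had received AAV-retro-H2B-GFP in the lumbar cord, so both groups carry the same transgene and virus. One group underwent the condition labelled SNI with brush and the other a hot water bath. Hindbrains, dissected from -7.3 to -5.2 mm relative to bregma, were pooled within each treatment, and GFP-labelled neurons activated by the stimulus were sorted as nuclei. Each pool gave 1 droplet library of 3′ RNA tags, so no comparison has a replicate, no p-value is given, and every interval is a 95% interval that covers counting error only.

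A cholinergic neuron makes acetylcholine from choline and acetyl coenzyme A with choline acetyltransferase (Chat), loads it into vesicles with the vesicular transporter encoded by Slc18a3, and takes choline back up from the synaptic cleft with the high-affinity transporter encoded by Slc5a7. Acetylcholinesterase (Ache) splits the released transmitter and is also made by many neurons that are not cholinergic. In the hindbrain the cholinergic neurons are mainly the cranial motor neurons and groups of tegmental and reticular neurons. Chat, Slc5a7 and Slc18a3 are therefore treated together below as the core genes, and Ache apart from them.

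The tables held 288 nuclei with 11298755 UMIs for SNI with brush and 425 nuclei with 16344606 UMIs for the hot water bath. No cell barcode was shared between the libraries. After removal of called doublets and of 17 nuclei led by liver genes (Cyp3a25, Cps1, Mug1), all in the SNI with brush library, 269 neurons with a median of 33172 UMIs and 422 neurons with a median of 36886 UMIs remained. Neuron markers were present throughout, with a median of 803 UMIs of 8 markers per SNI with brush neuron and 878 per hot water bath neuron. The libraries differed in ways that touch every gene: mitochondrial UMIs made up 0.514% and 0.148% of the total, and short genes ran higher in SNI with brush.

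Chat lies on chromosome 14 of the mm10 build from 32408203 to 32465989 on the minus strand, with 16 exons in its first annotated transcript (ENSMUSG00000021919, GENCODE M21). Slc18a3 (ENSMUSG00000100241) is a gene of 1 exon on the same strand, from 32462438 to 32464850, and sits wholly inside the first intron of Chat, a stretch of 4893 bp. It begins 1139 bp after the Chat gene start. A read from the Slc18a3 exon lies within both genes, and the sources used here do not say how intronic reads were counted, so the division of reads between the pair is uncertain. An annotated antisense gene, Gm2990, overlaps the first 948 bp of Chat. Slc5a7 (ENSMUSG00000023945) stands apart on chromosome 17 from 54273590 to 54299034 on the minus strand, and Ache (ENSMUSG00000023328) on chromosome 5 from 137287519 to 137294466 on the plus strand.

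**Figure D1:**
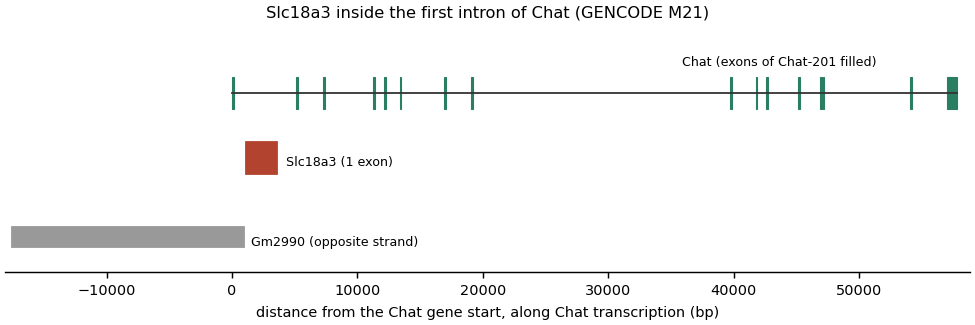
Map of the Chat locus, with distance in bp from the Chat gene start along the direction of Chat transcription on the x axis. Filled blocks on the upper line are exons of transcript Chat-201, the middle block is Slc18a3 and the lower block is Gm2990 on the opposite strand. Slc18a3 begins 1139 bp after the Chat start and ends before the next Chat exon.

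The start regions are shown because a pair of the genes shares 1 locus and the other pair does not, and so that the bases around each start can be compared. Each sequence is RefSeq's window of 250 bases before and 50 bases after the annotated start, on the gene's own strand in GRCm38.p6, at chr14:32465860-32466159 for Chat, chr14:32464801-32465100 for Slc18a3, chr17:54298985-54299284 for Slc5a7 and chr5:137288004-137288303 for Ache. Capitals mark the GC box, GGGCGG on either strand, with overlapping matches counted.
Chat: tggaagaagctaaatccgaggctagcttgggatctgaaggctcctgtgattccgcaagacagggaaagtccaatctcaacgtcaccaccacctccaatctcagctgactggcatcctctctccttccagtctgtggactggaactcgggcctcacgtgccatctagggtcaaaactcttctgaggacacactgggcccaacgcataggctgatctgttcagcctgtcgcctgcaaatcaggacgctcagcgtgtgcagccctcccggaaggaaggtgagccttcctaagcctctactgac
Slc18a3: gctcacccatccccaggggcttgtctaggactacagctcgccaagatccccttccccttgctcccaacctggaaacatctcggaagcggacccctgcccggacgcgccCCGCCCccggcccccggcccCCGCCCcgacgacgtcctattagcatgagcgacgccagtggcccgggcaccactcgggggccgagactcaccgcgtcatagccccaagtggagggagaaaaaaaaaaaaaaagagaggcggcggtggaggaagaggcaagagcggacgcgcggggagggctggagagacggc
Slc5a7: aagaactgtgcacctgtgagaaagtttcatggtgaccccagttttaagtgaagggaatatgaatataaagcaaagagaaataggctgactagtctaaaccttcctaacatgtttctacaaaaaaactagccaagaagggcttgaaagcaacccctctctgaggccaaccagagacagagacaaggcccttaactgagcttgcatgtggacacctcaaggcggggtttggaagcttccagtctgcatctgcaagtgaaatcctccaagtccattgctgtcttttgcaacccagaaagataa
Ache: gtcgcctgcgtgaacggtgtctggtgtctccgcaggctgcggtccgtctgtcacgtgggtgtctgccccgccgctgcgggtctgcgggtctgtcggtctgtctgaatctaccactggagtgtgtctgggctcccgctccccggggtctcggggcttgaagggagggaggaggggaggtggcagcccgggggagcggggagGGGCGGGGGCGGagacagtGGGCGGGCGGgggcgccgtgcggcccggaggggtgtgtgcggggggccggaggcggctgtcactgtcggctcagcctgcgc
The Ache window held 4 GC boxes, 30 CpG dinucleotides and 74% G and C. The Slc18a3 window held 2 GC boxes, 27 CpG and 67% G and C. Chat had no GC box, 10 CpG and 55.7% G and C, and Slc5a7 no GC box, 1 CpG and 44.7% G and C. Among all 32817 windows in the same table, 35.6% held a GC box, the median was 7 CpG and the median G and C content 52.7%. TATAAA, searched on both strands, occurred only in the Slc5a7 window among these 4, at base 64 from its 5′ end, and in 13.6% of all windows. The sequence TGACG, also on both strands, occurred 1 time each in the Chat and the Slc18a3 windows, 0 times in the other pair, and in 20.8% of all windows. The 2 genes of the nested locus thus begin in windows of different base composition, and Slc5a7 in the poorest in CpG of the 4.

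Chat RNA was scarce and similar in both libraries. Chat had 46 UMIs, or 4.29 CPM (counts per 1000000 UMIs; interval 3.14 to 5.72), in the 269 SNI with brush neurons, against 73 UMIs, or 4.52 CPM (3.54 to 5.68), in the 422 hot water bath neurons. Its log2 ratio, SNI with brush relative to hot water bath, was -0.07, with an interval of -0.64 to 0.48 that includes 0. It was seen in 16 neurons (5.95%) and 24 neurons (5.69%).

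Summed over all neurons, Slc5a7 had a higher level in SNI with brush than in the hot water bath. It had 157 UMIs, or 14.6 CPM (12.4 to 17.1), in SNI with brush neurons and 81 UMIs, or 5.01 CPM (3.98 to 6.23), in hot water bath neurons. The log2 ratio was 1.54 (1.15 to 1.95), a 2.91-fold higher level in SNI with brush. One SNI with brush nucleus carried 64 of the 157 UMIs. Without the richest nucleus of each library the log2 ratio was 1.13, and without the 4 nuclei described below it was 1.25 (0.73 to 1.80). Outside those 4 nuclei Slc5a7 had 7.44 CPM in SNI with brush neurons and 3.12 CPM in hot water bath neurons. The liver-gene nuclei of the SNI with brush library had 10.1 CPM (3.29 to 23.6), an interval that holds the level of the SNI with brush neurons, so free RNA and expression cannot be told apart there. A UMI of Slc5a7 was found in 43 neurons (16%) and 29 neurons (6.87%). The libraries also differed in cluster make-up, given below, whose part in the ratio was not tested.

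Slc18a3 was counted in only one of the libraries. It had 20 UMIs, or 1.87 CPM (1.14 to 2.88), in 15 SNI with brush neurons (5.58%), and 0 UMIs in the 422 hot water bath neurons, which allows a share of up to 0.711%. Against the limit of 3 counts that the whole group of hot water bath neurons allows, the level in SNI with brush was at least 10.0-fold higher (log2 3.33); the lower limit of the ratio's exact interval was log2 2.90. Slc18a3 was also at 0 in the hot water bath nuclei richest in Chat, and the sources used here do not say whether genes were counted alike in both libraries. Of the 15 positive nuclei 12 had a single UMI, and no nucleus had more than 3.

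Ache was detected in most neurons of both libraries. It had 798 UMIs, or 74.4 CPM (69.4 to 79.8), in SNI with brush neurons and 766 UMIs, or 47.4 CPM (44.1 to 50.9), in hot water bath neurons, and was seen in 232 (86.2%) and 329 neurons (78.0%). The log2 ratio was 0.65 (0.51 to 0.80), 1.57-fold higher in SNI with brush. Scaling by median-of-ratios size factors, which takes the median gene's shift of 0.19 out of every ratio, brought it to 0.46, below 1.5-fold.

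Ratios above 0 were common among all genes. Of 17480 genes with at least 20 UMIs over both libraries, 30.4% were higher in SNI with brush neurons by 1.5-fold or more and 8.43% were lower by as much, so that 3 of the 4 cholinergic genes stood on the side where many genes stood. Counting intervals lay above 0 for 42.5% of genes and below 0 for 16.4%. The ratio also went with gene length: its median was 0.64 among the shortest 3491 genes and -0.05 among the longest 3491. Genes of about the length of Ache, which spans 6948 bp, had a median log2 ratio of 0.51, close to the 0.65 of Ache. Genes of about the length of Chat (57787 bp) had a median of 0.09. For the length of Slc5a7 (25445 bp) the median was 0.24, with quartiles of -0.06 and 0.59, and Slc5a7 at 1.54 lay above the upper one. For Slc18a3 (2413 bp) the median of like genes was 0.69 and its bound was 3.33. The part of length or of RNA quality in any of these ratios was not tested.

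**Figure D2:**
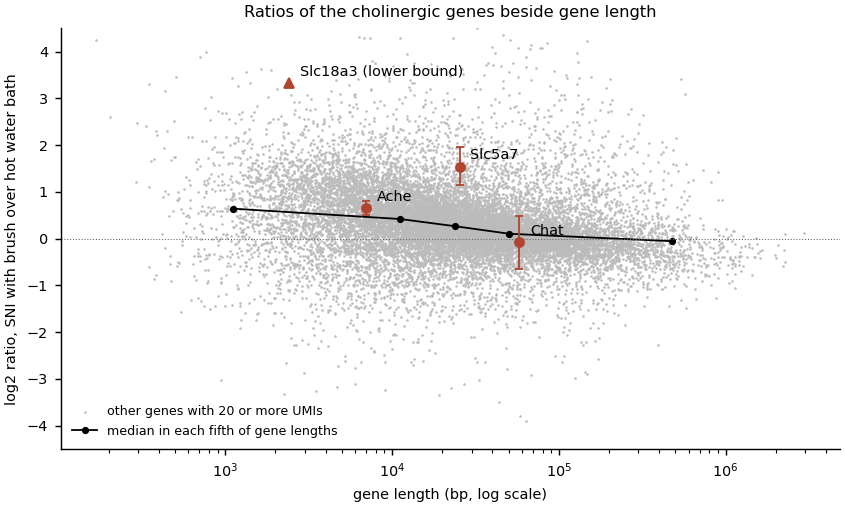
Log2 ratio, SNI with brush relative to hot water bath (y axis), against gene length in bp (x axis, log scale) for genes with at least 20 UMIs, in grey; 57 genes lie beyond the y range. Red points with bars are Chat, Slc5a7 and Ache with 95% counting intervals, the red triangle is the lower bound of Slc18a3, and the black line joins the medians of 5 equal bins of gene length, which runs from 0.64 to -0.05.

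A share of nuclei with a UMI depends on depth and on free RNA in the droplets. With every neuron thinned to 9000 UMIs, which left out none, Chat was found in 2.60% of SNI with brush and 1.18% of hot water bath neurons, Slc5a7 in 6.69% and 3.32%, Slc18a3 in 2.60% and none, and Ache in 50.2% and 34.1%. At this depth the order of the libraries was the same as without thinning for all 4 genes. For Chat the intervals overlapped (1.05 to 5.29 and 0.386 to 2.74), and at 20000 UMIs its shares were 2.84% and 2.86%. As a guide to free RNA, the 17 liver-gene nuclei of the SNI with brush library, with a median of 22273 UMIs, had Chat in 1 (5.88%), Slc5a7 in 4 (23.5%), Slc18a3 in none, which allows up to 17.6%, and Ache in 5 (29.4%). For Slc5a7 the interval of these nuclei (6.81 to 49.9) holds the share of 16% in SNI with brush neurons. Single UMIs of Slc5a7 in that library therefore cannot be told apart from free RNA. For Chat they are no guide: the 1 positive nucleus held 5 Chat UMIs and 930 UMIs of the neuron markers, against a median of 16 in the 17 nuclei. Ache in 86.2% of the neurons stood well above its share in the liver-gene nuclei. Serotonergic nuclei, with at least 5 UMIs of Tph2, which encodes the enzyme that starts serotonin synthesis, gave a second guide. Of 30 in the hot water bath library, with a median of 40064 UMIs, Chat was in none, which allows up to 10%, Slc5a7 in 1 (3.33%, interval 0.0844 to 17.2), and Ache in 27. The shares of Chat and Slc5a7 among all hot water bath neurons lie within these limits.

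Within each library the Chat and Slc5a7 UMIs sat in very few nuclei. The richest nucleus held 22 of 46 Chat UMIs (47.8%) in SNI with brush and 29 of 73 (39.7%) in the hot water bath, and 2 nuclei were enough to hold at least 50% of the Chat UMIs in either library. The 5 richest nuclei held 76.1% and 71.2% of Chat UMIs. Genes with between 0.5 and 2 times as many UMIs had medians of 25.8% and 15.7%, and only 2.68% and 0.312% of them were more concentrated than Chat. Slc5a7 behaved alike, with 65.0% and 56.8% in the 5 richest nuclei against medians of 13.1% and 14.8% for genes of similar count; 0.960% and 0.616% of those genes were more concentrated. Slc18a3 was less so: its 5 richest nuclei held 50% of 20 UMIs, against a median of 41.2% for genes of similar count, and 26.6% of those genes were more concentrated.

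Ache was spread broadly. Its 5 richest nuclei held 7.52% of its UMIs in SNI with brush and 4.83% in the hot water bath, slightly under the medians of 8.64% and 5.49% of genes of similar count. It took 62 nuclei in SNI with brush and 93 in the hot water bath to hold 50% of its UMIs, against 2 for Chat.

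**Figure D3:**
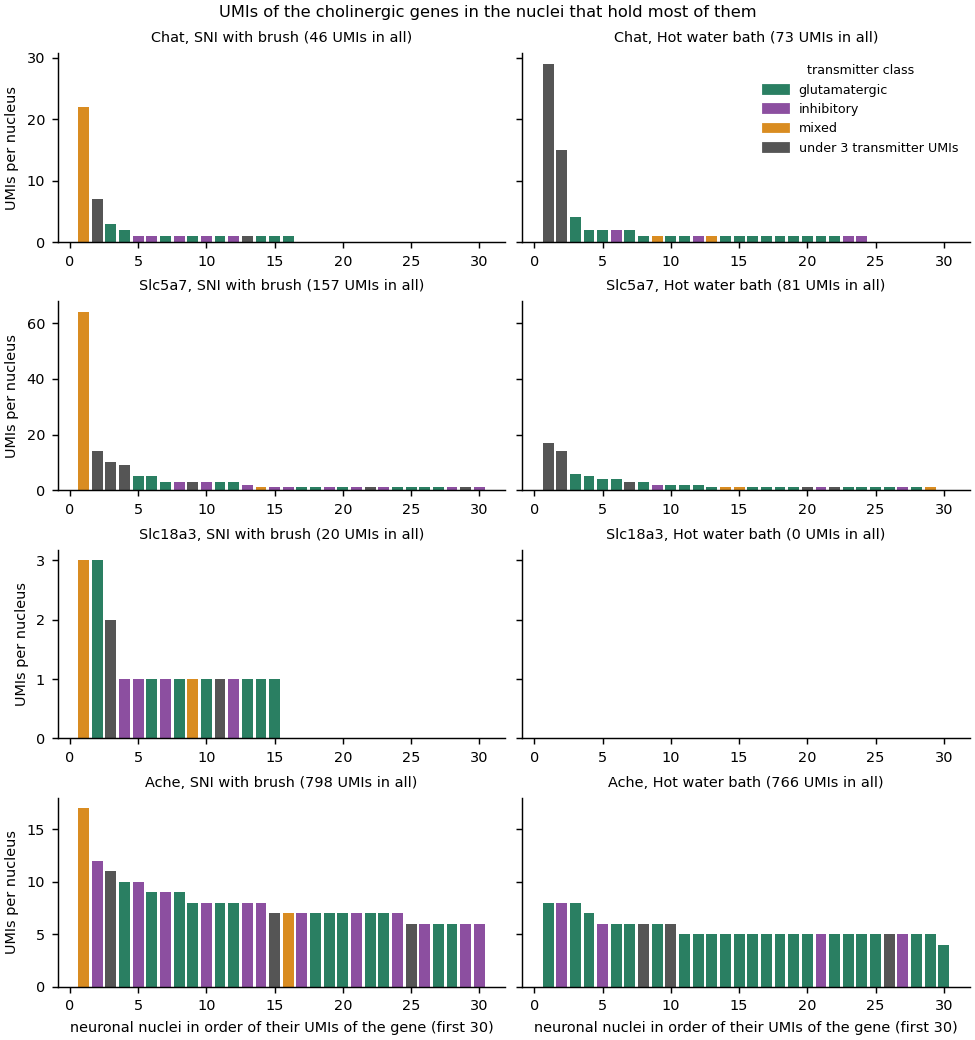
UMIs per nucleus (y axis) of each cholinergic gene in the first 30 neurons when ranked by that gene (x axis), for SNI with brush on the left and hot water bath on the right, coloured by transmitter class. Chat and Slc5a7 drop steeply after 1 or 2 nuclei with up to 29 and 64 UMIs, Slc18a3 is empty in the hot water bath, and Ache declines slowly from 17 and 8 UMIs.

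Most nuclei with a core gene had only one of the 3. In SNI with brush, 205 neurons had none, 56 had 1, 6 had 2 and 2 had all 3; in the hot water bath, 378 had none, 35 had 1, 9 had 2 and none had 3. Nuclei with at least 2 core genes, called co-detected nuclei from here on, numbered 8 (2.97%, interval 1.29 to 5.78) in SNI with brush and 9 (2.13%, 0.980 to 4.01) in the hot water bath. These few nuclei held 138 of 223 core UMIs (61.9%) and 103 of 154 (66.9%). Their median depth was 40180 UMIs against 32891 in other neurons of SNI with brush, and 32779 against 36952 in the hot water bath. No liver-gene nucleus and no serotonergic nucleus was among those with 2 core genes. There were 17 liver-gene nuclei, and 4 serotonergic nuclei in SNI with brush and 30 in the hot water bath. At shares of 2.97% and 2.13%, 0 in groups of this size says little.

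How often the core genes met in a nucleus differed between pairs and libraries. In SNI with brush, Slc5a7 was in 4 of the 16 Chat nuclei (25%) and in 39 of the 253 neurons without Chat (15.4%). In the hot water bath it was in 9 of the 24 Chat nuclei (37.5%) and in 20 of the 398 without (5.03%). As a share of the other list, Chat was in 4 of 43 Slc5a7 nuclei (9.30%) in SNI with brush and in 9 of 29 (31%) in the hot water bath. Slc18a3, seen only in SNI with brush, was accompanied by Slc5a7 in 6 of 15 nuclei (40%, 16.3 to 67.7), and by Chat in 2 of 15. Slc5a7 was in 37 of 254 neurons without Slc18a3 (14.6%, 10.5 to 19.5), an overlapping interval. All nuclei of the neuronal clusters with at least 5 Chat UMIs, 2 in each library, had Slc5a7. A liver-gene nucleus with 5 Chat UMIs had none.

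Over all neurons, Chat and Slc5a7 (log counts per 10000) had a Pearson r of 0.57 in SNI with brush (n = 269 nuclei of 1 library) and 0.68 in the hot water bath (n = 422). Without the 2 nuclei of each library that had at least 20 core UMIs, r was 0.03 in SNI with brush and 0.32 in the hot water bath, so in SNI with brush the correlation rested on those 2 nuclei. Chat and Ache had an r of 0.19 and 0.02. Ache was about as common with Chat as without it: it was in 13 of 16 Chat nuclei (81.2%) and 219 of 253 others (86.6%) in SNI with brush, and in 21 of 24 (87.5%) and 308 of 398 (77.4%) in the hot water bath.

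**Figure D4:**
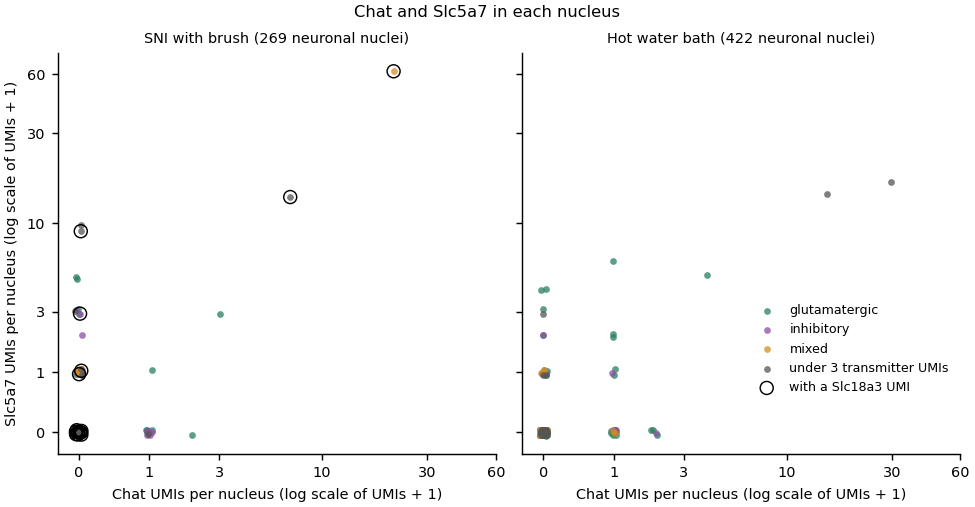
Slc5a7 UMIs (y axis) against Chat UMIs (x axis) in each neuron, both on a log scale of UMIs + 1 with slight random offsets, for SNI with brush on the left and hot water bath on the right. Colours give the transmitter class and rings mark nuclei with a Slc18a3 UMI; 2 nuclei in each library lie far from the rest, at 22 and 7 Chat UMIs and at 29 and 15 Chat UMIs.

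The 4 nuclei with at least 20 core UMIs held 50.2% of the core UMIs of SNI with brush and 48.7% of those of the hot water bath. They are described one by one because the averages of Chat and Slc5a7 turn on them.

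The richest SNI with brush nucleus, with 74993 UMIs, had 22 Chat, 64 Slc5a7, 3 Slc18a3 and 17 Ache UMIs. It also had 59 UMIs of Nos1, the neuronal nitric oxide synthase, 38 of Bche, butyrylcholinesterase, 22 of Prima1, the membrane anchor of acetylcholinesterase in brain, and 58 of Acly, which makes cytosolic acetyl coenzyme A. Its vesicular glutamate transporters, glycine and GABA genes summed to 4 UMIs. All 4 microglial markers were present too, with 43 UMIs, or 573 CPM against a median of 66.2 CPM over the neurons of this library; its doublet score was 0.168 and it was not called a doublet. The part of those transcripts in its profile was not tested.

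The richest hot water bath nucleus, with 43318 UMIs, had 29 Chat, 17 Slc5a7, no Slc18a3 and 2 Ache UMIs. It shared with the nucleus above 65 UMIs of Nos1, 26 of Prima1, 8 of Bche, 51 of Fgfr1 (75 in the SNI with brush nucleus), 53 of Slc44a5, a choline transporter-like gene (52), and 10 of Ano1, a calcium-activated chloride channel (17). It had no UMI of any transmitter gene for glutamate, GABA or glycine, and its 3 microglial UMIs (69.3 CPM) were near the library median of 64.6. Across 17476 genes, the 4 members left out, each of these 2 nuclei was the other's closest match in the opposite library, first of 422 and first of 269, with r = 0.79. The next closest nucleus was near, with r = 0.76 for the SNI with brush nucleus and 0.78 for the hot water bath nucleus, and the median r with all nuclei of the opposite library was 0.72 for the SNI with brush nucleus and 0.68 for the hot water bath nucleus. This match was looked for after the values were seen.

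The second SNI with brush nucleus was of another kind. It had 22494 UMIs with 7 Chat, 14 Slc5a7, 2 Slc18a3 and 11 Ache UMIs, together with 35 UMIs of Vip, 34 of Nts and 20 of Cartpt, which encode the peptides VIP, neurotensin and CART. It also had 8 UMIs of Prph, the peripherin filament of motor and sensory neurons, and 7 of Colq, the collagen tail of acetylcholinesterase. It had none of Nos1, Bche and Prima1, and no UMI of the glutamate, GABA and glycine genes. The second hot water bath nucleus, with 73774 UMIs, had 15 Chat, 14 Slc5a7, no Slc18a3 and 2 Ache UMIs, 6 of Prph, 5 of Nos1 and 6 of Prima1, and again none of the glutamate, GABA and glycine genes. Its leading genes were Pde3a (53 UMIs) and Plscr4 (27 UMIs). These 2 nuclei were not each other's closest match: the hot water bath one was 14th of 422 for the SNI with brush nucleus (r = 0.65), and in the other direction the SNI with brush one ranked 180th of 269. The closest match of that hot water bath nucleus, at r = 0.81, was an SNI with brush nucleus with 0 core UMIs.

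Transmitter class was set per nucleus from 7 other genes. A nucleus with 3 or more UMIs of these genes was glutamatergic where at least 75% came from Slc17a6, Slc17a7 and Slc17a8, the vesicular glutamate transporters, and inhibitory where at least 75% came from Slc32a1, Slc6a5, Gad1 and Gad2, the GABA and glycine genes. Of the 8 co-detected SNI with brush nuclei, 3 were glutamatergic (37.5%, interval 8.52 to 75.5), 2 inhibitory, 1 mixed and 2 had under 3 transmitter UMIs. The other 261 neurons divided into 120 glutamatergic (46.0%), 103 inhibitory (39.5%), 22 mixed and 16 with few. Of the 9 co-detected hot water bath nuclei, 6 were glutamatergic (66.7%), 1 inhibitory and 2 had few, against 246 (59.6%), 83 (20.1%) and 51 (12.3%) of the other 413 neurons. With so few nuclei the intervals span the shares of the other neurons in every class.

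Where the UMIs sat was less even than where the nuclei sat. Mixed nuclei and those with few transmitter UMIs held 22 and 8 of the 46 Chat UMIs in SNI with brush, although they made up 8.68% and 3.63% of neuronal UMIs. All 22 came from the richest nucleus, 1 of 23 mixed nuclei, and 7 of the 8 from the second rich nucleus. In the hot water bath, nuclei with few transmitter UMIs held 44 of 73 Chat UMIs (60.3%) and 36 of 81 Slc5a7 UMIs (44.4%), against 10.2% of neuronal UMIs; all 44 Chat UMIs came from the 2 rich nuclei. Neurons with no glutamate, GABA or glycine UMI at all were rare, 3 of 269 (1.12%) and 10 of 422 (2.37%). Co-detected nuclei supplied 1 of the 3 and 2 of the 10, and 3 of the 4 nuclei with at least 20 core UMIs were of this kind.

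In glutamatergic and inhibitory neurons alike the core genes appeared as a few UMIs per nucleus. SNI with brush neurons with few transmitter UMIs held 38 Slc5a7 UMIs, of which the second rich nucleus had 14. In that class the nuclei ranked 3 and 4 by core UMIs had 10 and 9 Slc5a7 UMIs. In glutamatergic neurons Chat had 1.94 CPM (0.969 to 3.47) in SNI with brush and 2.18 CPM (1.36 to 3.29) in the hot water bath. In inhibitory neurons it had 1.34 CPM (0.435 to 3.13) and 1.56 CPM (0.507 to 3.64). Slc5a7 had 6.0 CPM (4.15 to 8.38) and 3.76 CPM (2.66 to 5.16) in glutamatergic neurons, a log2 ratio of 0.68 whose interval (-0.04 to 1.38) includes 0. In inhibitory neurons it had 4.55 CPM (2.65 to 7.29) and 1.25 CPM (0.340 to 3.20), a ratio of 1.74 (0.25 to 3.9) that rests on 17 and 4 UMIs. Slc18a3 was found in SNI with brush nuclei of every class, with 9 UMIs in glutamatergic, 4 in inhibitory, 4 in mixed nuclei and 3 in those with few.

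One cluster of the hot water bath library stood out for Slc5a7. Clusters were built from all variable genes and are given here by their leading genes. In the cluster led by Calcrl, the calcitonin-like receptor, Col25a1 and Nox4, 12 of 25 hot water bath nuclei (48%) had a core gene, and 11 had Slc5a7, with 24 UMIs. Of the other clusters with at least 10 hot water bath nuclei, none exceeded 17.4%. This cluster also held 5 of the 9 co-detected hot water bath nuclei, all 5 glutamatergic and each with a single Chat UMI and 1 to 6 Slc5a7 UMIs. The same cluster had 3 SNI with brush nuclei, of which 1 had 5 Slc5a7 UMIs and was glutamatergic. In SNI with brush, 5 of the 8 co-detected nuclei were in the cluster led by Sst, Sox2ot and Rskr. It held 97 of the 269 neurons, and 32 of its 97 nuclei (33.0%) had a core gene. In the hot water bath it held 23 of 422 neurons. Slc5a7 had 126 of its 157 UMIs in this cluster in SNI with brush, and 18 of 81 in the hot water bath. The richest nucleus of each library had 64 and 17 of these. In the cluster led by Tnfrsf22 and Acan, Slc5a7 had 9 UMIs in 59 SNI with brush nuclei and 11 UMIs in 23 hot water bath nuclei. In the one led by Hoxb6 it had 11 UMIs in 53 nuclei and 0 in 18. The part of cluster make-up in the Slc5a7 ratio was not tested.

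Ache was present in every transmitter class, and its level differed most between the libraries outside glutamatergic neurons. In glutamatergic neurons it had 62.6 CPM (56.3 to 69.5) in SNI with brush and 50.1 CPM (45.9 to 54.7) in the hot water bath, a log2 ratio of 0.32 (0.12 to 0.52). In inhibitory neurons it had 84.4 CPM (75.3 to 94.2) and 44.4 CPM (37.4 to 52.3), a ratio of 0.93 (0.64 to 1.22), and the intervals of the 2 ratios do not overlap. Mixed neurons had 82.8 and 35.2 CPM, with a ratio of 1.22 (0.67 to 1.81), and those with few transmitter UMIs had 131 and 45.4 CPM, with a ratio of 1.53 (0.99 to 2.06). Within SNI with brush, inhibitory neurons thus had more Ache per UMI than glutamatergic ones beyond counting error, whereas in the hot water bath the intervals of these classes overlapped. The classes drew on different clusters in each library. The inhibitory cluster led by Tph2 had 4 SNI with brush and 31 hot water bath nuclei. The inhibitory cluster led by Hoxb6 had 53 and 18. There Ache had 87.1 CPM (73.7 to 102) and 59.2 CPM (39.9 to 84.5), with overlapping intervals. No ratio over all genes is given by class, and the part of cluster make-up was not tested.

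By cluster, Ache in SNI with brush ranged from 95.6 CPM (85.3 to 107) in the cluster led by Sst to 46.6 CPM (39.3 to 54.7) in the one led by Tnfrsf22 and Acan, among the 4 clusters with at least 10 nuclei. Among 16 such clusters of the hot water bath it ranged from 71.1 CPM (55.9 to 89.1), in the one led by Creb5, to 34.5 CPM (24.2 to 47.8), again in the one led by Tnfrsf22 and Acan. The highest and lowest differ beyond counting error within each library. All 3 neighbouring pairs in the SNI with brush order and all 15 in the hot water bath order had overlapping intervals. In the 3 clusters with at least 10 nuclei from both libraries, those led by Sst, Hoxb6 and Tnfrsf22, Ache was higher in SNI with brush each time, with overlapping intervals in those led by Hoxb6 and Tnfrsf22.

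**Figure D5:**
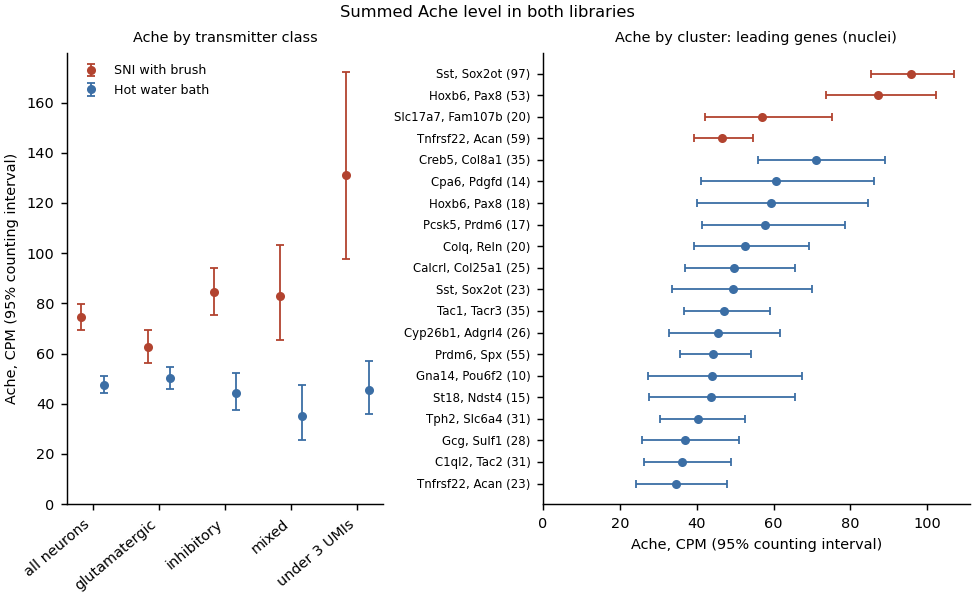
Summed Ache level in CPM with 95% counting intervals, on the left by transmitter class (x axis) and on the right by cluster of at least 10 nuclei (rows, named by leading genes with the number of nuclei). Red is SNI with brush and blue is hot water bath; the SNI with brush level is above that of the hot water bath in all 4 classes, and most so in nuclei with few transmitter UMIs, at 131 and 45.4 CPM.

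In the co-detected nuclei Ache went different ways in the libraries. In SNI with brush it had 118 CPM (85.6 to 159) in co-detected nuclei and 72.9 CPM (67.8 to 78.3) in other neurons. In the hot water bath it had 32.7 CPM (16.9 to 57.1) and 47.7 CPM (44.4 to 51.3), with overlapping intervals. The SNI with brush value came mainly from the 2 rich nuclei, which had 28 of the 43 Ache UMIs, or 287 CPM (191 to 415), whereas the 2 rich hot water bath nuclei had 4 UMIs, or 34.2 CPM (9.31 to 87.5). Without the rich nuclei, Ache had 56.4 CPM (31.6 to 93.0) in the other 6 co-detected SNI with brush nuclei and 32.0 CPM (13.8 to 63.1) in the other 7 of the hot water bath, so the direction in SNI with brush turned.

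Genes that handle acetylcholine or its precursors were read beside the core genes. Of 24 genes in this list 23 were in the tables and 22 had at least 20 UMIs. Between the libraries, 7 were higher in SNI with brush neurons by 1.5-fold or more and 2 lower by as much, with a median log2 ratio of 0.26 against 0.23 over all genes. Their CPM was higher in co-detected nuclei than in other neurons of both libraries for 9 of the 22, against 19.4% of all 17480 genes. Co-detected nuclei held 3.39% of neuronal UMIs in SNI with brush and 2.27% in the hot water bath. Over both libraries the median gene had 2.66% of its UMIs there. Prima1 had 29.8% of its UMIs in the 17 co-detected nuclei, 41 of 130 in SNI with brush and 37 of 132 in the hot water bath. Bche had 27.0% there, with 39 of 115 and 27 of 129. Slc10a4, a vesicular protein of cholinergic and monoaminergic neurons, had 13 of 38 UMIs in co-detected SNI with brush nuclei. All 13 were in the 2 rich nuclei, 12 of them in the richest. In co-detected hot water bath nuclei Slc10a4 had 0 of 39 UMIs. Acly had 209 CPM in co-detected SNI with brush nuclei and 48.4 CPM in the others, against 92.6 and 50.6 CPM in the hot water bath. Without the 4 rich nuclei, 7 of the 22 genes had a higher CPM in co-detected nuclei of both libraries, against 17.6% of all genes. Prima1 then had 71.4 CPM in co-detected nuclei and 8.59 CPM in other neurons of SNI with brush, and 20 and 6.02 CPM in the hot water bath. Bche turned in SNI with brush, with 3.76 CPM (0.0952 to 20.9, from 1 UMI) and 7.34 CPM, an interval that holds the latter. It stayed higher in the hot water bath, with 76.0 CPM (45.8 to 119) and 6.46 CPM. The 19 hot water bath UMIs of these co-detected nuclei all lay in the cluster led by Calcrl, with 9, 7, 2 and 1 per nucleus. The part of that cluster in the value was not tested. Acly then had 60.2 CPM (34.4 to 97.7) in co-detected SNI with brush nuclei, an interval that holds the 48.4 CPM of other neurons, and 92.0 CPM (58.3 to 138) in those of the hot water bath.

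Motor neuron genes were present in the co-detected nuclei unevenly. Of 23 in the list 16 had at least 20 UMIs, 7 of them higher and 2 lower in SNI with brush by 1.5-fold or more, against 30.4% and 8.43% of all genes. In co-detected nuclei of both libraries 6 had a higher CPM (19.4% of all genes), and 4 without the 4 rich nuclei (17.6% of all genes). Isl1, a homeodomain factor of motor neurons, had 7 of 14 UMIs in 2 co-detected SNI with brush nuclei and 0 of 7 in those of the hot water bath. Calca, which encodes CGRP, had 44.0 CPM in co-detected nuclei and 5.60 CPM in others in SNI with brush, and 16.3 and 2.91 CPM in the hot water bath. Prph had 35.8 and 7.72 CPM in SNI with brush, and 27.2 and 7.60 CPM in the hot water bath. Without the rich nuclei Prph had 15 CPM (4.10 to 38.5) in co-detected SNI with brush nuclei and 16 CPM (4.36 to 41.0) in those of the hot water bath, intervals that hold the levels of other neurons. Calca stayed higher without the rich nuclei, at 60.2 CPM (34.4 to 97.7) in co-detected SNI with brush nuclei and 24.0 CPM (8.81 to 52.3) in those of the hot water bath. These values rest on 16 UMIs in 3 nuclei and 6 UMIs in 2 nuclei. Lhx3 and Mmp9 had no UMI in the co-detected nuclei. Each had at most 54 UMIs in a library, so 0 in so small a share of neuronal UMIs says little.

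From the list for cholinergic interneurons and tegmental neurons, 14 of 16 genes were in the tables and 10 had at least 20 UMIs, of which 7 were higher and 2 lower in SNI with brush by 1.5-fold or more, against 30.4% and 8.43% of all genes. In co-detected nuclei of both libraries 2 of the 10, Nos1 among them, had a higher CPM (19.4% of all genes), and 1 without the rich nuclei (17.6% of all genes). Nos1 had 60 of 217 UMIs in co-detected SNI with brush nuclei and 71 of 213 in those of the hot water bath, of which the 2 rich nuclei held 59 and 70. Without them Nos1 had 3.76 CPM in co-detected nuclei and 15.2 CPM in other neurons in SNI with brush, and 4.00 and 8.99 CPM in the hot water bath, so its direction turned in both. Zic4 had 8 of 69 and 0 of 20 UMIs there, and Pax2 4 of 295 and 0 of 73. Ngfr, En1, Otp, Evx2 and Nkx2-2 had none. Each had at most 45 UMIs in a library, and co-detected nuclei held 3.39% and 2.27% of neuronal UMIs, so 0 there says little.

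The genes whose pattern over nuclei was most like that of the summed core genes, by the lower of the 2 libraries' Pearson r among 13159 genes, were Bche (r = 0.28 in SNI with brush and 0.30 in the hot water bath), Prima1 (0.24 and 0.52), Wnt2 (0.23 and 0.32), Ngb (0.30 and 0.22), Ano1 (0.21 and 0.22) and Fgfr1 (0.20 and 0.29). Nos1, Rimbp2, Slc12a3, Stab2 and Thsd7a were also among the first 12. Over all genes the median of this measure was -0.03 and its 99th percentile 0.09. Without the 4 rich nuclei, the r of Nos1 was -0.03 and -0.06, that of Bche 0.08 and 0.23, and that of Prima1 0.07 and 0.21. None of the 12 remained among the first 12 under Spearman correlation.

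For Ache the most alike genes, over the same 269 and 422 nuclei, were Pcsk1n (0.27 and 0.22), Rtn1 (0.23 and 0.22), Rabac1 (0.24 and 0.21), Atp6v0c (0.31 and 0.19), Bsg, Timp2, Tubb2b and Cspg5. Their values barely moved without the rich nuclei, at 0.27 and 0.22 for Pcsk1n and 0.22 and 0.22 for Rtn1, and 4 of the 8 remained under Spearman correlation. None of these 8 was among the 12 named for the core genes.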

How the data were processed

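The authors deposited, for each library, a table of raw UMI counts per gene and nucleus with its gene and barcode lists; the whole-number counts were used as deposited. The mm10 build, Cell Ranger 5.0 and Seurat are named in the submitters' processing notes, without settings. The barcode lists hold 850 and 723 entries for SNI with brush and hot water bath, of which 288 and 425 have a column, so nuclei were filtered before deposit.

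The members and lists were chosen with earlier results of these data known. A filter of at least 500 genes and less than 5% mitochondrial UMIs per nucleus took out 0 nuclei. Scrublet, run per library, called 2 (0.694%) and 3 (0.706%) doublets, which were left out. Counts were scaled to 10000 per nucleus and logged, 2000 variable genes were taken within libraries and centred per library, and nuclei were clustered (Leiden, 30 components, 15 neighbours, resolution 1.0; scanpy 1.11.5, igraph 0.11.9). Of 19 clusters 18 were neuronal; the last was the liver-gene one.

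Levels are UMIs summed over neurons as CPM with exact Poisson intervals, shares carry exact Clopper-Pearson intervals, and log2 ratios had 0.5 UMI added to both sums, with exact conditional intervals. PCR duplicates were removed by the UMIs, and intervals cover counting error only. A count of 0 allows 3 counts. Called means at least 1.5-fold. The computation was tested on simulated counts. The named genes were the 4 members, the 12 genes most like the core genes and the 8 most like Ache, each with a UMI in at least 10 neurons of each library, and at most 4 per list by their share of UMIs in co-detected nuclei; Fgfr1, Ano1, Slc44a5, Colq and other genes given for single nuclei, and list members given as having no UMI, were chosen after their values were seen. The ranking passed over predicted genes, mitochondrial genes, Y-linked genes, Tsix and Xist. A few named genes are not reported here. Positions come from GENCODE M21 and start windows from RefSeq (GRCm38.p6), where all 4 members matched. Tools were python 3.11.15, numpy 2.4.6, pandas 2.3.3, scipy 1.17.1, anndata 0.12.19 and matplotlib 3.10.9.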

Additional observations from a re-analysis of the deposited data

Results flagged for a closer look

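Cholinergic transcripts also occurred in data outside the neuronal comparison. The 17 liver-gene nuclei of the SNI with brush library held 5 Chat, 5 Slc5a7 and 8 Ache UMIs, each more than the 3 counts that a count of 0 would allow, and no Slc18a3. All 5 Chat UMIs were in 1 nucleus, whereas the Slc5a7 UMIs were spread over 4 nuclei and the Ache UMIs over 5. The nucleus with 5 Chat UMIs had 49103 UMIs in all, with 930 UMIs of the 8 neuron markers and 215 of the liver markers. The medians of the 17 nuclei were 16 and 317 UMIs, and SNI with brush neurons had a median of 803 UMIs of the neuron markers. It had no Slc5a7 and 1 Ache UMI.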

How the results depend on the processing

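No paired analysis was possible because each treatment has 1 library. Over 27 results and 83 alternatives, 48 values stayed within the counting interval of the main value (counts of nuclei within 1.5 times), and 35 moved beyond it. The log2 ratio of Chat, whose interval includes 0, was 0.16 as a mean of CPM per nucleus and 0.10 with all deposited nuclei, against -0.07. The ratios of Slc5a7 and Ache kept their sign in every alternative run. These runs included one without the nuclei with at least 20 core UMIs, which was chosen after seeing the data. Slc18a3 had 0 UMIs in the hot water bath neurons and only a lower bound, so its kept sign says little. The ratio of Slc5a7 was 1.13 without the richest nucleus of each library. That of Ache was 0.46 with size factors and 0.82 as a mean of CPM per nucleus. Shares depended on depth: Ache was in 31.2% and 21.1% of neurons (SNI with brush and hot water bath) at 5000 UMIs, 75.4% and 59.0% at 20000, and 22.7% and 8.06% with at least 2 UMIs at 9000. With at least 2 UMIs Chat was in 0.743% and 0.237%, Slc5a7 in 1.86% and 0.474%, and Slc18a3 in 0 SNI with brush neurons. At 20000 Chat was in 2.84% of SNI with brush and 2.86% of hot water bath neurons, and at 5000 Slc5a7 was in 4.83% and 1.66%. The 10 richest nuclei held 75.8% and 74.1% of Slc5a7, 75% of Slc18a3 in SNI with brush, and 12.9% and 8.75% of Ache; thinned to 9000, the 5 richest hot water bath nuclei held 100% of Chat and 8.15% of Ache. Co-detected nuclei numbered 4 and 1 after thinning and 2 and 0 with all 3 genes, and 13 SNI with brush nuclei had at least 3 core UMIs, so co-detection at this depth rests on single UMIs in most nuclei. By the class of their cluster, 0% of co-detected SNI with brush nuclei were glutamatergic; of the hot water bath ones 11.1% were when 10 transmitter UMIs were asked for, and 0% were inhibitory under that rule, by cluster, or with at least 3 core UMIs. Under Spearman correlation 0 of the 12 genes most like the core genes and 4 of the 8 most like Ache remained. The causes were not tested.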
